A study of Homo sapiens with 4 samples.

Results

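The 10 genes described here encode enzymes that cut peptides or nucleotides at or near the cell surface: ANPEP, DPP4, ENPEP, MME, ECE1, LNPEP, ERAP1, ERAP2, GGT1 and NT5E, out of 61541 gene IDs in the table. They were chosen by name, and ANPEP headed the choice because it was already known to be much higher after knockdown, so its change is given as a description without a test. The cells were MHCC97H, an established human hepatocellular carcinoma line. Control cells carrying a control short hairpin RNA (shCon, 2 libraries) were compared with UBXN1-knockdown cells carrying a hairpin against UBXN1 (shUBXN1, 2 libraries), and all 4 libraries were of the same line with no other treatment named in the labels. The sources used here do not say which UBXN1 hairpin was sequenced, so an effect of one hairpin and an effect of UBXN1 loss cannot be told apart. Nothing in the labels says that the 2 libraries of a group came from separate cultures, so the p-values measure the spread between these libraries, which may be technical.

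Ectopeptidases are membrane enzymes whose active site faces the outside of the cell, where they trim or inactivate hormones, chemokines and other peptides and free amino acids for uptake. In the liver, aminopeptidase N (ANPEP, CD13) and dipeptidyl peptidase 4 (DPP4, CD26) are known on the bile canalicular face of hepatocytes. The group is broader than its common name. ERAP1 and ERAP2 work inside the endoplasmic reticulum, where they trim peptides for MHC class I. LNPEP resides largely in endosomal vesicles, and NT5E (CD73) is a nucleotidase that makes adenosine from AMP.

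ANPEP, ENPEP, LNPEP, ERAP1 and ERAP2 encode M1 zinc aminopeptidases, whose shared zinc-binding motif HEXXH lies in coding exon sequence. The 30 coding bases around that motif are shown because all of these genes share it. The same stretch is shown for ECE1, a zinc endopeptidase of the neprilysin family. ECE1 also has HEXXH, so the motif alone does not set the M1 family apart. Capitals mark the 15 bases that code for the motif, and the sequences were read from the canonical transcripts of GENCODE release 44 on GRCh38.
ANPEP: gattgctCATGAGCTGGCCCACcagtggtt
LNPEP: cattgctCATGAGCTGGCCCACcagtggtt
ERAP1: tgtggccCATGAACTGGCTCACcagtggtt
ERAP2: catagccCATGAACTGGCGCACcagtggtt
ENPEP: ggttgccCATGAACTTGTGCATcagtggtt
ECE1: cgtgggcCATGAGCTGACTCATgcttttga

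The ANPEP stretch lies on the minus strand of chromosome 15 at chr15:89803998-89804277, a span that holds an intron. Its capitals code for residues 388 to 392 of 967. ANPEP and LNPEP were identical over the 15 capitals and over 29 of the 30 bases. The neighbouring genes ERAP1 and ERAP2 shared 14 of 15 and 26 of 30 bases, whereas ANPEP and ENPEP shared 10 of 15 and 23 of 30. The ECE1 stretch lies within exon 16 at chr1:21227167-21227196 on the minus strand. These likenesses are in the code of the active site, whereas the mRNA levels of the same genes moved in both directions.

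Total counts were 27380508 and 24305174 for the control libraries and 23433826 and 23373700 for the knockdown libraries. UBXN1 itself had 1788 and 1817 counts in shCon and 416 and 433 in shUBXN1, so that 24.4% of its level was left. Counts from mitochondrial genes made up 5.28% and 5.59% in shCon and 7.43% and 8.27% in shUBXN1. Hepatocyte markers were present in every library, with a summed level of 4460 and 4616 CPM (counts relative to library size, scaled by edgeR's TMM method) in shCon and 3472 and 4062 in shUBXN1, a sum made up mostly of the keratins KRT8 and KRT18. Of the 10 hepatocyte markers 2 rose and 6 fell at an adjusted p under 0.05 by edgeR. Over all genes tested 28.0% rose and 28.2% fell. The secreted liver proteins among those that fell were reduced far more than the sum. ALB fell to 25.6%, TF to 25.6%, APOB to 27.8% and TTR to 11.5% of the control mean. TTR passed the filter on low counts through the control libraries alone, so that it had to be lower. SERPINA1, another secreted liver protein, rose (log2 fold change 0.40), and AFP and APOA1 did not pass the threshold. The 4 biliary markers summed to 376 and 374 CPM in shCon and 247 and 268 in shUBXN1, with KRT19 lower (log2 fold change -1.25) and KRT7 higher (1.15). The 4 endothelial markers summed to 48.4 and 49.9 CPM in shCon and 92.6 and 99.5 in shUBXN1. Among them KDR (1.79) and PECAM1 (0.35) rose, VWF had 9 and 17 counts against 34 and 25, and CDH5 had 3 and 6 against 0 and 0. The 6 fibroblast and stellate markers summed to 33.1 and 33.2 against 17.2 and 19.9 CPM, nearly all of it LUM (-1.06). DCN also fell, from 17 and 13 counts to 2 and 1, whereas COL1A1 rose from 10 and 4 counts to 58 and 59. DCN passed the filter through the control libraries alone and COL1A1 through the knockdown libraries alone, so these directions were fixed. The 5 immune markers summed to 83.8 and 89.4 against 73.9 and 71.5 CPM, nearly all of it CD68, with CD3E at 0 throughout and PTPRC at no more than 4 counts. The part of these shifts in the changes of the peptidases was not tested. In a bulk culture, fewer cells that make an mRNA and less of that mRNA per cell cannot be told apart.

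Levels of different genes were compared per length, as TPM, the share of a gene among all transcripts once counts are divided by the deposited gene lengths. In control cells ECE1 stood highest, at 99.4 and 93.7 TPM, followed by DPP4 at 62.3 and 58.6 TPM and NT5E at 30.1 and 26.8 TPM. ANPEP followed at 20.5 and 19.8 TPM, just above ERAP1 at 17.4 and 17.5 TPM. LNPEP (9.50 and 8.99 TPM), ERAP2 (8.36 and 7.80 TPM) and GGT1 (2.91 and 4.19 TPM) were lower. ENPEP was at 0.134 and 0.135 TPM, and MME had 0 counts in all 4 libraries. No 2 neighbours in this order had overlapping ranges, but with 2 libraries a range is a weak guide to spread.

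In UBXN1-knockdown cells the order began with ANPEP, at 122 and 119 TPM, above ECE1 at 77.2 and 74.2 TPM. ANPEP then made up 37.7% and 38.3% of the TPM of the 10 genes together, against 8.18% and 8.33% in control cells. NT5E (43.1 and 41.9 TPM) stood above DPP4 (35.8 and 35.1 TPM), the reverse of their order in control cells. GGT1 (14.5 and 13.0 TPM) stood above ERAP1 (11.6 and 11.2 TPM), ERAP2 (10.7 and 10.3 TPM) and LNPEP (8.45 and 6.08 TPM).

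**Figure D1:**
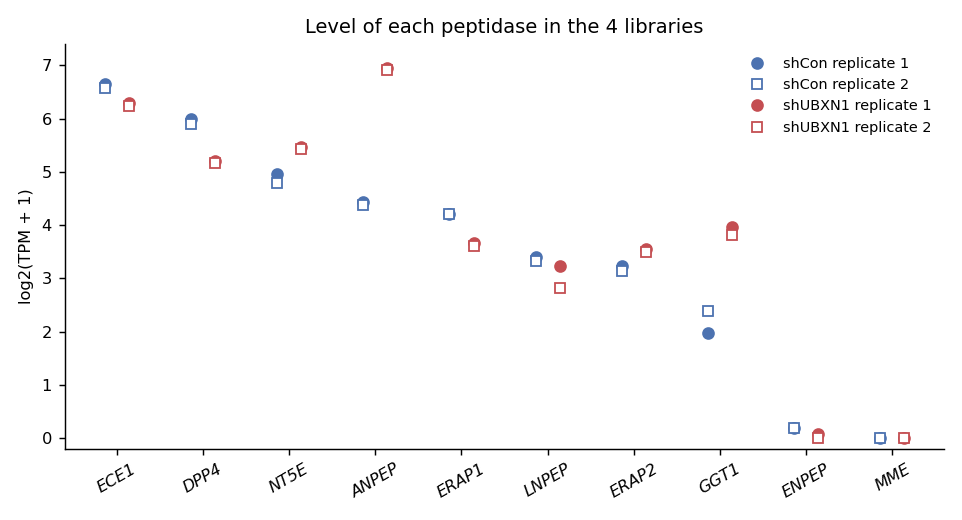
Level of each gene in the 4 libraries, as log2(TPM + 1) on the vertical axis, with shCon in blue and shUBXN1 in red and a point for each library. In TPM, ANPEP moves from 20.5 and 19.8 TPM in shCon to 122 and 119 TPM in shUBXN1, the highest level of the 10 genes in that group, while MME is at 0 in every library.

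ANPEP removes neutral amino acids from the N-terminus of peptides. It had 997 and 873 counts in shCon and 5166 and 5137 in shUBXN1, which is 37.4 and 37.2 CPM against 209 and 219 CPM. Both knockdown libraries lay far above both control libraries, and the libraries of each group lay close together. The mean was higher, going from 37.3 ± 0.165 to 214 ± 7.55 CPM (SD, n = 2 in each group), 5.74-fold, with a log2 fold change of 2.52. Among the 16863 genes tested 387 had a larger log2 fold change, but only 8 of those were among the 6252 genes with a mean log2 CPM of at least 5. By TPM, ANPEP ranked 6320 and 6322 among the tested genes in shCon and 1227 and 1222 in shUBXN1. The log2 fold change lay between 2.39 and 2.61 over all alternative settings, the lowest with the trend on gene GC content removed.

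**Figure D2:**
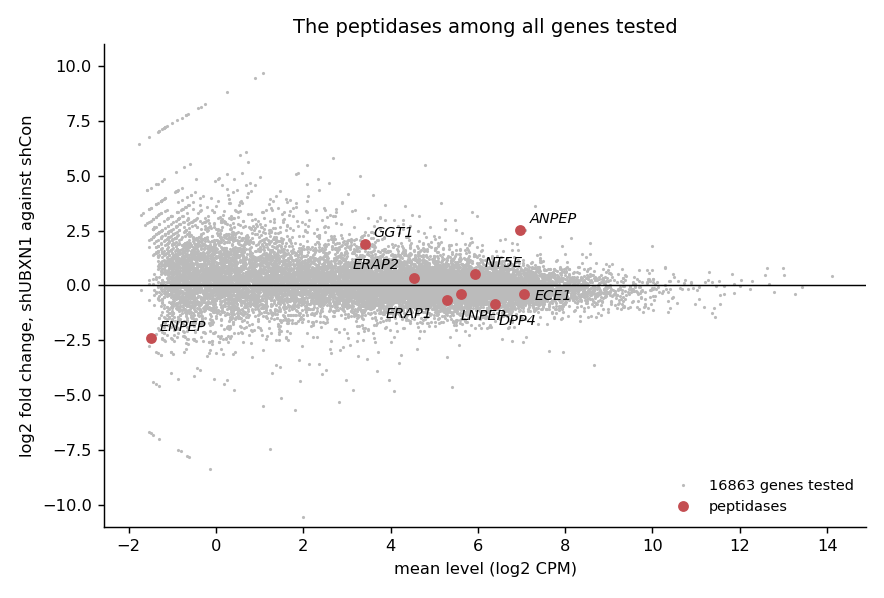
Log2 fold change of shUBXN1 against shCon (vertical axis) against the mean level in log2 CPM (horizontal axis) for the 16863 genes tested (grey), with the 9 peptidases that passed the filter in red and named. ANPEP lies at 2.52, above nearly all genes of its level, while ENPEP lies at the low end of the horizontal axis.

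The gene (ENSG00000166825) lies on the minus strand of chromosome 15 at chr15:89784895-89815401 (GRCh38), with 21 exons. RefSeq gives ANPEP a pair of start windows 8.2 kb apart, and both are shown, each from 250 bases before to 50 bases after a start, because they differ in make-up and because the counts per gene do not tell which start was used. Capitals mark the motifs TATAA and GGGCGG on either strand, so that TTATA and CCGCCC are their reverse forms; overlapping matches were counted. The upstream window is chr15:89814803-89815102 and the downstream window chr15:89806579-89806878, both on the minus strand of GRCh38.p14, and the DPP4 window chr2:162074166-162074465 (minus strand) is shown for comparison because DPP4 moved the other way.
ANPEP upstream: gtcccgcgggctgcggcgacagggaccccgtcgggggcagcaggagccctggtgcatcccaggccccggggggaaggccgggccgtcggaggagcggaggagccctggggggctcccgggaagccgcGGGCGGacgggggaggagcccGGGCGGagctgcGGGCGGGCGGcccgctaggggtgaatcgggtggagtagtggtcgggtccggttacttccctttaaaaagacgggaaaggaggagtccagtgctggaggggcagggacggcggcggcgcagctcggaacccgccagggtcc
ANPEP downstream: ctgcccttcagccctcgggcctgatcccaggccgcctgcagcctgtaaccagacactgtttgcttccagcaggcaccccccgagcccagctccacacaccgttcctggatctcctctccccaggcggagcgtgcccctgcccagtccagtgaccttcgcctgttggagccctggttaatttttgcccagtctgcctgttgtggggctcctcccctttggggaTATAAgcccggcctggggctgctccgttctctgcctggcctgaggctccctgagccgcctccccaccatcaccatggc
DPP4: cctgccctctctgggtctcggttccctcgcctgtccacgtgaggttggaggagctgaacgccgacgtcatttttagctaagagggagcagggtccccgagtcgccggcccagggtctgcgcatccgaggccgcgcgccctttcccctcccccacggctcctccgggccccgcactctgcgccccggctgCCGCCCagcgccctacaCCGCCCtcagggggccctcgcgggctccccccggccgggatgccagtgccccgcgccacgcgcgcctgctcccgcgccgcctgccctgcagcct

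The upstream ANPEP window had a GC content of 75.0% with 32 CpG pairs, 4 GGGCGG matches and 0 TATAA matches. The downstream window had 65.3% GC, 10 CpG pairs, 1 TATAA match and 0 GGGCGG matches. The DPP4 window, at 75.0% GC with 34 CpG pairs, 2 GGGCGG and 0 TATAA matches, was closer in make-up to the upstream ANPEP window. Among 35116 RefSeq windows of 300 bases, TATAA was found in 20.4% and GGGCGG in 45.0%, so neither motif is rare. A match is a run of letters and not evidence that a factor binds there.

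The other genes moved in both directions. A gene was called at an adjusted p under 0.05 (edgeR's quasi-likelihood test over all 16863 genes, Benjamini-Hochberg adjusted), a call that 56.2% of all tested genes reached, 28.0% as higher and 28.2% as lower. Apart from ANPEP, 7 genes stood above the minimum level of the filter in both groups. Of these ERAP2, GGT1 and NT5E rose and DPP4, ECE1, LNPEP and ERAP1 fell. Their median log2 fold change was -0.41, against 0.02 over all genes. The knockdown and control libraries did not overlap for any of the 7, which was so for 78.0% of all genes. With a fold change of at least 2 and an unadjusted p under 0.05, the study's own kind of threshold, GGT1 alone of the 7 passed, a threshold that 17.9% of all genes passed, 11.8% as higher and 6.09% as lower. These counts describe genes picked with earlier results known, and nothing particular to the group is read from them. ENPEP was kept by the filter through the control libraries alone, so that it had to be lower, and it is not counted.

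**Figure D3:**
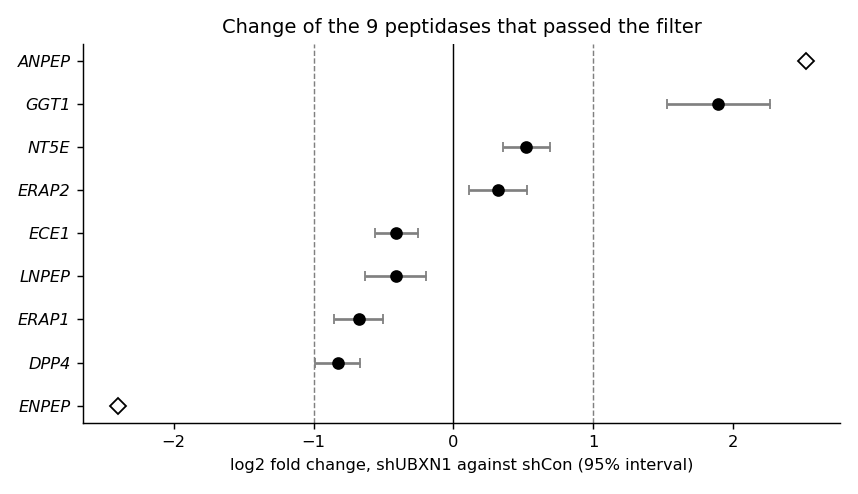
Log2 fold change of shUBXN1 against shCon for each gene that passed the filter, with 95% confidence intervals as bars and dashed lines at a fold change of 2 in either direction. ANPEP (2.52, picked for its rise) and ENPEP (-2.40, kept by the filter through shCon alone) are open diamonds without an interval; GGT1 (1.89), NT5E (0.52) and ERAP2 (0.32) lie above 0, and ECE1 (-0.41), LNPEP (-0.41), ERAP1 (-0.68) and DPP4 (-0.83) below.

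DPP4 cuts dipeptides that end in proline or alanine from peptides such as the incretin hormones. The gene (ENSG00000197635, chr2:161992245-162074394, minus strand, 26 exons) had 2917 and 2488 counts in shCon and 1462 and 1459 in shUBXN1, or 109 and 106 CPM against 59.1 and 62.3 CPM. Both knockdown libraries were below both controls, at 56.4% of the control mean. DPP4 fell by 0.83 on the log2 scale (95% interval -0.99 to -0.67, adjusted p = 3.98e-07 by edgeR). Within a library, the ratio of ANPEP to DPP4 in TPM was 0.329 and 0.338 in shCon and 3.40 and 3.39 in shUBXN1.

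ECE1 converts big endothelin to the active peptide, and MME (neprilysin) degrades enkephalins, natriuretic peptides and others. ECE1 (ENSG00000117298, chr1:21217247-21345572, minus strand, 19 exons) had 4105 and 3512 counts in shCon and 2779 and 2723 in shUBXN1, or 154 and 149 CPM against 112 and 116 CPM. The knockdown mean was 75.3% of the control mean, and ECE1 fell by 0.41 on the log2 scale (95% interval -0.56 to -0.26, edgeR adjusted p = 0.000234). EDN1, which encodes the substrate of ECE1, had a log2 fold change of -0.01 (95% interval -0.23 to 0.22, edgeR adjusted p = 0.966), with 482 and 445 counts against 446 and 441. MME (ENSG00000196549, chr3:155024124-155183704, plus strand) was not tested, since 0 counts in each of 4 libraries give no value to compare.

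LNPEP, ERAP1 and ERAP2 lie together on chromosome 5, with ERAP1 on the minus strand and ERAP2 on the plus strand, their starts facing away from each other across 67.9 kb, and LNPEP beginning 15.7 kb after ERAP2 ends. ERAP1 (ENSG00000164307, chr5:96760810-96808100) had 1254 and 1146 counts in shCon and 730 and 713 in shUBXN1. This was 47.0 and 48.8 CPM in shCon and 29.5 and 30.5 CPM in shUBXN1, which is 62.6% of the control level. It fell by 0.68 on the log2 scale (95% interval -0.85 to -0.50, edgeR adjusted p = 7.85e-06). The knockdown libraries lay below both controls. ERAP2 (ENSG00000164308, chr5:96875986-96919703, plus strand) had 562 and 476 counts in shCon and 629 and 613 in shUBXN1, or 21.1 and 20.3 CPM against 25.4 and 26.2 CPM, with a log2 fold change of 0.32 (95% interval 0.11 to 0.53, edgeR adjusted p = 0.0116). Without shCon replicate 2 the log2 fold change of ERAP2 was 0.28 with an adjusted p of 0.143, and DESeq2 gave an adjusted p of 0.0562. The neighbours thus moved in opposite directions, and the ratio of ERAP2 to ERAP1 in TPM went from 0.480 and 0.445 to 0.923 and 0.921.

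LNPEP cleaves oxytocin, vasopressin and other peptides with a cystine. The gene (ENSG00000113441, chr5:96935394-97037513, plus strand, 18 exons) had 1510 and 1297 counts in shCon and 1170 and 858 in shUBXN1, or 56.6 and 55.2 CPM against 47.3 and 36.6 CPM, so the knockdown libraries differed from each other more than the controls did. It fell by 0.41 on the log2 scale (95% interval -0.63 to -0.19, edgeR adjusted p = 0.00329). Without shUBXN1 replicate 2 the log2 fold change was -0.26, and without shUBXN1 replicate 1 it was -0.61. With total count scaling the adjusted p of LNPEP was 0.0575, and with limma on log2(TPM + 1) it was 0.149. CAST, which encodes calpastatin and lies on the other strand from ERAP1, overlapping 3.76% of its exon bases, had a log2 fold change of -0.55 (edgeR adjusted p = 2.76e-05). Whether the counting used strand is not stated in the sources used here, so reads from overlapping antisense genes may not be told apart.

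GGT1 transfers the gamma-glutamyl group of extracellular glutathione. The gene (ENSG00000100031, chr22:24594811-24629005, plus strand, 16 exons) had 97 and 127 counts in shCon and 421 and 384 in shUBXN1, or 3.64 and 5.41 CPM against 17.0 and 16.4 CPM. All knockdown values were above the control values, and the log2 fold change was 1.89 (95% interval 1.53 to 2.26, edgeR adjusted p = 4.49e-07). A readthrough gene at chr22:24556007-24628987 shares 56.5% of the exon bases of GGT1 on the same strand, so reads may be split between them, and 78.6% of the exon bases of the readthrough gene are GGT1 bases. That gene had 2035 and 1908 counts in shCon and 2060 and 2154 in shUBXN1, many times the count of GGT1. Counted together, the pair had 2132 and 2035 counts in shCon and 2480 and 2537 in shUBXN1, and the log2 fold change was 0.33 (edgeR adjusted p = 0.00253). The size of the GGT1 change is therefore uncertain. GGT4P, a near copy, had 495 and 449 counts in shCon and 569 and 552 in shUBXN1, and how reads shared between copies were assigned is not stated in the sources used here.

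NT5E (ENSG00000135318, chr6:85449584-85495791, plus strand, 9 exons) had 1406 and 1134 counts in shCon and 1751 and 1737 in shUBXN1, or 52.7 and 48.3 CPM against 70.8 and 74.2 CPM. It rose 1.44-fold, with a log2 fold change of 0.52 (95% interval 0.35 to 0.69, edgeR adjusted p = 6.12e-05). ENPEP, which removes acidic residues such as the first of angiotensin II (ENSG00000138792, chr4:110365733-110565285, plus strand, 20 exons), had 12 and 11 counts in shCon and 4 and 0 in shUBXN1. The log2 fold change was -2.40 and is a description, since the filter on low counts fixed its direction. It rests on few counts: without shUBXN1 replicate 2 it was -1.49, without shUBXN1 replicate 1, which leaves 0 counts in the knockdown group, it was -6.51, and with limma on log2(TPM + 1) it was -0.15.

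Around these genes, 8 lists of relatives, substrates and partners held 110 genes, of which 62 passed the filter, 25 rose, 15 fell and 22 were not called. The 25 include ENTPD8 and TMPRSS3, whose direction the filter fixed, as given below. The 15 include ADORA2A, whose knockdown libraries differed widely, as also given below. Over all genes 56.2% were called, 28.0% as higher and 28.2% as lower, and the counts of each list stand against those shares; nothing particular to a list is read from them. Of 5 other M1 aminopeptidases tested 3 rose and 1 fell: LTA4H, which makes leukotriene B4, by a log2 fold change of 0.76, the puromycin-sensitive aminopeptidase NPEPPS by 0.49 and RNPEP by 0.50 (named for this count after its value was seen), while RNPEPL1 had -0.99. Among 11 genes of glutathione turnover 3 rose and 7 fell, with CNDP2, a dipeptidase, at -1.26, GCLM, a subunit of the first enzyme of glutathione synthesis, at -1.04 and GGT7 at 1.31. The median of this list was -0.31, with 0.02 over all genes. Of 11 genes for extracellular nucleotides and adenosine 2 rose, 3 fell and 6 were not called. ENPP1, which makes AMP from ATP, fell by 0.84 on the log2 scale. ADORA2A, also among those that fell, had 62 and 85 counts in shCon and 2 and 36 in shUBXN1. Of its knockdown libraries only replicate 2 stood above the minimum level of the filter. Its log2 fold change was -0.945 without shUBXN1 replicate 1 and -5.125 without shUBXN1 replicate 2. ADORA2A lost its call in 2 of 11 alternative settings. ENTPD8, among those that rose, was at 6 and 3 counts in shCon and 23 and 17 in shUBXN1. The filter kept it through the knockdown libraries alone, so that it had to be higher.

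Of 7 peptide hormone and receptor genes tested, AGT (angiotensinogen, log2 fold change 1.16) and AGTR1 (0.30) rose and 0 fell. AGTR1 lost its call in 1 of 12 alternative settings, without shCon replicate 2, where its log2 fold change was 0.28. Among 13 other cell surface proteases 8 rose and 1 fell, with the sheddases ADAM17 at 0.84 and ADAM10 at 0.65 and BACE2 at -1.29. The 8 include TMPRSS3, at 7 and 3 counts in shCon and 12 and 25 in shUBXN1. The filter kept TMPRSS3 through the knockdown libraries alone, so that it had to be higher. The list of 9 genes for peptide loading of MHC class I, the pathway that ERAP1 and ERAP2 serve, had 6 that rose and 2 that fell: the peptide transporter subunit TAP1 had a log2 fold change of 1.65, HLA-B 1.90 and HLA-C 0.72. Those that fell were TAP2 (-0.555) and CALR (-0.443), and TAP2 lost its call in 4 of 12 alternative settings. HLA genes share near-identical stretches and vary between people, so their counts are uncertain. Of the 5 other dipeptidyl and prolyl peptidases 1 rose and 1 fell: DPP7 had 0.27 and PREP -0.31. The direction of DPP7 turned to -0.05 when the GC trend was removed. PREP lost its call in 3 of 12 alternative settings, among them without shCon replicate 2 (adjusted p = 0.0511 by edgeR) and without shUBXN1 replicate 1 (adjusted p = 0.0617 by edgeR). The 1 other neprilysin family gene tested, PHEX, had -0.06 (edgeR adjusted p = 0.786).

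The genes with the profile most like that of ANPEP over the 4 libraries were found by the smallest distance between centred log2 CPM values among 11992 genes with a mean log2 CPM of at least 2. They were FLNC (filamin C, distance 0.0487), TNNT1 (a troponin T, 0.0744), S100A2 (0.0889), CRIP1 (0.123) and PLAT (tissue plasminogen activator, 0.136). FLNC had 1036 and 938 counts in shCon and 5465 and 5583 in shUBXN1, with a log2 fold change of 2.54. With 4 libraries in 2 groups, likeness of this kind mostly says that a gene changed by the same amount.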

How the data were processed

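RNA was sequenced from 4 libraries of MHCC97H cells, 2 shCon and 2 shUBXN1, grouped by their titles. The labels call the control shCon and name a VAHTS library kit, whereas the paper's methods name a hairpin against RFP and a TruSeq kit. The authors deposited expected counts per gene, not normalized, with a gene length. The paper's methods name GRCh38, Hisat2, TPM and limma, whereas the submitters' processing notes list GRCh37, HISAT2 2.0.4 and StringTie 1.3.0; the counting tool, annotation release and strand setting are not given in the sources used here. Counts were rounded to whole numbers, filtered with filterByExpr, scaled by TMM and compared with edgeR 4.0.16 (quasi-likelihood F test, R 4.3.3) without a block. The standard error of a log2 fold change was its size over the square root of the F statistic. The filter left 16863 genes. Library totals ran from 23373700 to 27380508 counts. TPM was computed here from the deposited lengths. Gene positions are those of GENCODE release 44 on GRCh38, matched by gene ID (61369 of 61541 matched), since the table holds no coordinates. The test was checked on simulated counts. Alternatives were DESeq2 1.42.0, limma 3.58.1 (voom, and log2(TPM + 1)), total count scaling, other filters, a replicate block and leaving out each library. Removal of a GC trend and the joint count of GGT1 with its readthrough gene were added after the data were seen. The members and lists were chosen with earlier results of these data known. Genes named were the 10 members, up to 3 genes per list past an adjusted p of 0.05 with the smallest p, the 5 most like ANPEP, and UBXN1. RNPEP, EDN1, PHEX, CAST, TMPRSS3, ADORA2A, TAP2, CALR and the neighbouring genes were named after their values were seen.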

Additional observations from a re-analysis of the deposited data

How the results depend on the processing

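Counts of the 10 genes below are of values past the threshold. They include ANPEP, picked for its rise, and ENPEP, whose direction the filter fixed. Neither gene is read as called, and these counts do not show stability. The count that was lower was 5, with ENPEP among them. It was 3 with limma on log2(TPM + 1) and 3 with total count scaling. In both settings LNPEP lost its call and ENPEP was no longer past the threshold, and the reason was not tested. The number past a fold of 2, which was 3 with ANPEP and ENPEP among them, became 5 at a fold of 1.5. Of the 7 others that passed the filter in both groups none changed direction in any of the 12 settings fitted to all 7; 3 rose and 4 fell, with 2 to 3 higher and 3 to 4 lower across those settings, and 1 was past a fold of 2 and 3 past a fold of 1.5. Leaving out 1 library at a time gave 3 to 4 of the 10 higher, 4 to 5 lower, 2 to 3 past a fold of 2, 30 to 42 called genes in the lists and 7353 to 9678 called genes in all, where the full set gave 40 and 9478. Under total count scaling 57.3% of calls were higher, against 49.9%, and the median of all genes moved to 0.10. Under limma on log2(TPM + 1) LNPEP had an adjusted p of 0.149, and under total count scaling 0.0575. ERAP2 had an adjusted p of 0.0562 with DESeq2 and 0.143 without shCon replicate 2. ENPEP ran from -6.51 to -0.15 over 11 settings and had no value with at least 10 counts in every library, and MME had none anywhere. PREP lost its call in 3 of 12 settings, with limma on log2(TPM + 1) (adjusted p 0.14) and without shCon replicate 2 or shUBXN1 replicate 1. With the GC trend removed DPP7 had a log2 fold change of -0.046, the only reversal among the genes followed over the settings. Replicates of the same number showed little shared difference across the groups: the correlation of replicate differences between the groups was 0.0393. The labels do not say whether libraries were prepared in pairs, and this correlation cannot show it. With a replicate block 10023 genes were called, and among the 7 genes 3 were higher and 4 lower, as without it. With 2 libraries per group the spread is poorly known.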

Other observations

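Genes beside the peptidases on their chromosomes were also measured. MESP2, 6.1 kb from ANPEP, had 16 and 19 counts in shCon and 6 and 12 in shUBXN1, with a log2 fold change of -0.89 (edgeR adjusted p = 0.192). MESP1, 33.6 kb away on the same side, had 29 and 27 counts in shCon and 68 and 50 in shUBXN1, with a log2 fold change of 1.13 (edgeR adjusted p = 0.0128) that lost the call in 3 alternative settings. AP3S2, 15.2 kb on the other side of ANPEP, had a log2 fold change of 0.09 (edgeR adjusted p = 0.432), and ARPIN-AP3S2 0.15 (edgeR adjusted p = 0.311). The name of ARPIN-AP3S2 includes AP3S2, and whether reads are split between these genes was not tested. LRRC75B, 1.6 kb from GGT1, had 53 and 50 counts in shCon and 151 and 157 in shUBXN1, with a log2 fold change of 1.64 (edgeR adjusted p = 3.15e-05), while SNRPD3 at 12.8 kb had -0.26 (edgeR adjusted p = 0.0118). The readthrough gene that overlaps GGT1 has 17.4% of its exon bases in SNRPD3. Reads may therefore be split between that gene and SNRPD3, which was not tested. On chromosome 5, RIOK2, 123.4 kb from LNPEP, fell by 1.07 and ELL2, 799.0 kb from ERAP1, by 0.82 on the log2 scale. LIX1, nearer to LNPEP at 54.4 kb, had 0 counts in every library. PCSK1, nearer to ERAP1 at 326.7 kb, had at most 1. On chromosome 6, SNX14, 9.0 kb from NT5E, had a log2 fold change of 0.22 (edgeR adjusted p = 0.034), and ENSG00000271793, at the same distance, had -0.44 (edgeR adjusted p = 0.0018). SNX14 and ENSG00000271793 lie on the same side of NT5E and overlap, so reads may be split between them, which was not tested.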
